A study of Rattus norvegicus with 16 samples.

Results

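Cdkn1a and 8 genes linked to the p53 stress response were followed through the livers of sham-operated and adrenalectomized rats that had breathed air or ozone. The 9 genes, Cdkn1a, Mdm2, Ccng1, Gadd45a, Gadd45b, Gadd45g, Bax, Sesn1 and Sesn2, were taken by symbol from a table of 22587 gene symbols. Each was found once, and all 9 passed the filter on low values that left 12771 genes for testing. Cdkn1a was chosen by its measured change with ozone, higher in sham-operated rats and not in adrenalectomized rats. Its values are therefore given as a description with no test. The other 8 genes were taken for their link to p53, and their differences were tested.

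The libraries came from liver mRNA of male rats of the strain labelled Wistar-Wyoto, 13 weeks old, with 4 libraries in each of 4 groups. SHAM air rats kept their adrenal glands after a sham operation and breathed air for 4 hours, and SHAM ozone rats breathed 0.8 ppm ozone, an oxidant gas, for the same time. ADREX air and ADREX ozone rats had lost both adrenal glands by total bilateral adrenalectomy and were exposed in the same ways. The groups follow the library titles, which go against the treatment labels: these read ozone for the 4 ADREX libraries titled air as well as for the other 4. The series asks how adrenal stress hormones regulate liver function after ozone. Adrenalectomy removes the source of both glucocorticoids and adrenal catecholamines, so their parts cannot be told apart. The labels do not say whether the 4 libraries of a group came from 4 animals, and p-values measure the spread between these libraries.

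The transcription factor p53 is held low by the ubiquitin ligase Mdm2 and is stabilised when DNA is damaged or a cell is stressed. It then raises genes that stop the cell cycle (Cdkn1a, Gadd45a), that feed back on it (Mdm2, Ccng1), that permeabilise mitochondria in apoptosis (Bax) and that restrain growth signalling (Sesn1, Sesn2). Most of these genes also answer to other inputs: Cdkn1a and the Gadd45 genes can be raised without p53, Cdkn1a among others by the glucocorticoid receptor, and Sesn2 by the ATF4 and NRF2 stress pathways.

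Promoters are printed for Cdkn1a and Ccng1, the 2 members whose SHAM ozone libraries were all above all SHAM air libraries. Both hold 1 match to a 10-base element of which p53 binds adjoining pairs. RefSeq promoter windows of rat build GRCr8, from 250 bases before to 50 bases after each gene's start, were matched by symbol for 8 of the 9 genes, all but Bax. The 250 bases before the start are printed 5′ to 3′ on the gene's strand. Capitals mark a match to the p53 decamer, the consensus element that p53 binds in adjoining pairs. Only full matches to the 10 bases were marked, so an adjoining element with a mismatch stays in small letters. The windows are chr20:7150682-7150931 on the plus strand for Cdkn1a and chr10:25684877-25685126 on the minus strand for Ccng1.
Cdkn1a: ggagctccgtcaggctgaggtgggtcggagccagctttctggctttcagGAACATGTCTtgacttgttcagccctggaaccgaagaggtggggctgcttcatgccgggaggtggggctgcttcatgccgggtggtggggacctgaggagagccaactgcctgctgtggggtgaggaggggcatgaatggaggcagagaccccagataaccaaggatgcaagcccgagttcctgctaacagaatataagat
Ccng1: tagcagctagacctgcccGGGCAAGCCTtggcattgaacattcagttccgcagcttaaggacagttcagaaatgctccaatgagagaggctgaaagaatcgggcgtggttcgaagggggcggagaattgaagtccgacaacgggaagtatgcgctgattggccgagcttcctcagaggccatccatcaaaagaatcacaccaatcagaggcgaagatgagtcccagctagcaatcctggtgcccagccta
The match began 201 bases before the start in Cdkn1a and 232 bases before it in Ccng1. Gadd45a held GGGCTAGCCC 48 bases before its start, and Sesn1 held AAGCTTGTTT 172 bases before its start. Neither of these was higher with ozone in SHAM (log2 −0.18 and −0.29). In all, 4 of the 8 windows held a decamer match on either strand, beside 7.98% of 33469 rat promoter windows of the same length. The letters ACANNNTGT, the core of the paired element of the glucocorticoid receptor, read the same on both strands in their fixed bases. They stood in 0 of the 8 windows and in 6.86% of all windows. A match is a description of letters, and the genes were chosen for their link to p53, so the count supports nothing about binding. The absence of a match says only that the letters are not in these windows.

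Recovered reads numbered 8372891 to 14096246 per library. All 10 hepatocyte markers had reads in each group, and their sum was between 116198 and 229784 RPM, meaning reads per 1000000 recovered in that library. The libraries also held transcripts of neurons and oligodendrocytes: all 17 markers had reads in each group. Their sum ranged from 42.7 to 783 RPM in the SHAM air libraries, from 72.8 to 2777 with ozone, from 260.2 to 1131 in ADREX air libraries and from 757 to 4383 with ozone. It was highest in ADREX ozone 82, SHAM ozone 18 at 2777 and ADREX ozone 81 at 1777. Fits without these 3 libraries keep only ADREX ozone 83 and 84 in that group. Fewer libraries and less neural RNA cannot be told apart in those fits. Fkbp5, a chaperone gene that glucocorticoids induce, was 481 ± 88.8, 2104 ± 693, 325 ± 90.8 and 365 ± 137 normalised counts in SHAM air, SHAM ozone, ADREX air and ADREX ozone (mean ± SD, n = 4 each). With ozone, all its ADREX libraries were below all its SHAM libraries, as in 9.94% of the genes tested.

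Cdkn1a encodes p21, which binds and inhibits cyclin-dependent kinases. In normalised counts, the deposited unit of reads divided by a size factor per library, SHAM air libraries 1, 2, 3 and 4 held 354, 129.7, 450.0 and 345. SHAM ozone libraries 17, 18, 19 and 20 held 2916, 816, 2117 and 3217. ADREX air libraries 65, 66, 67 and 68 held 105, 76.3, 237 and 141, and ADREX ozone libraries 81, 82, 83 and 84 held 119, 192, 75.7 and 67.6. The 4 SHAM ozone libraries were above all 12 others, and the lowest of them, library 18, was the one richest in neural markers in its group. Group means were 319.8 ± 135 for SHAM air, 2266 ± 1072 for SHAM ozone, 139.6 ± 69.9 for ADREX air and 113 ± 56.8 for ADREX ozone (SD, n = 4 each). In bulk tissue a change in RNA per cell cannot be told apart from a change in the number of cells of a type.

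On the log2(value + 1) scale Cdkn1a was 2.78 ± 0.48 (SE) higher with ozone in SHAM, a 6.88-fold difference, and −0.29 ± 0.48 in ADREX. The ozone effect in ADREX minus that in SHAM was −3.08 ± 0.68. These values chose the gene. In air ADREX was −1.18 ± 0.48 against SHAM with overlapping libraries, and under ozone it was −4.26 ± 0.48 with no overlap. In order of level, SHAM ozone stood first, SHAM air second, and the ADREX groups last, their libraries overlapping each other. SHAM air and ADREX air also overlapped, through SHAM air 2 at 129.7. With the neural marker level as a covariate the SHAM ozone difference was 2.79, and leaving out the 3 libraries with most neural RNA made it 3.21, the difference between the effects −4.04 and the surgery difference under ozone −5.22. The 3 were SHAM ozone 18 (816, the lowest of its group) and ADREX ozone 81 and 82 (119 and 192, the highest of theirs). ADREX ozone then kept only libraries 83 (75.7) and 84 (67.6). The part of neural RNA in these larger differences was therefore not tested.

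**Figure D1:**
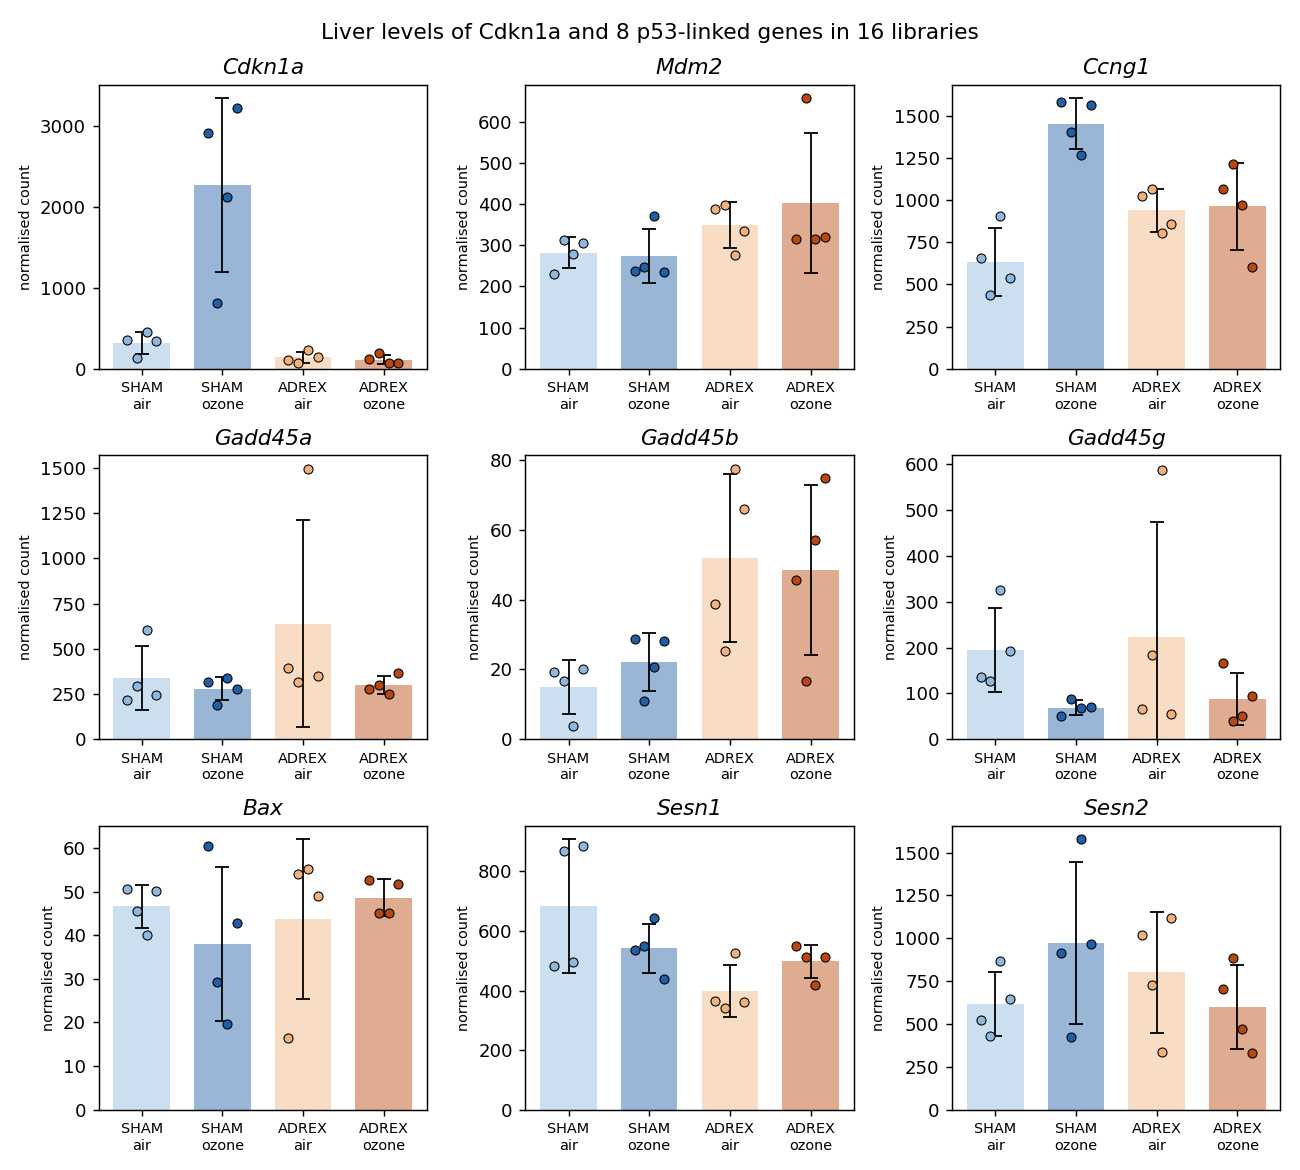
Normalised counts (vertical axis, linear from 0) of each of the 9 genes in the 16 libraries, by group. Points are libraries, bars are group means and whiskers are SD over 4 libraries (cut at 0 for Gadd45g). The SHAM ozone libraries stand above all others for Cdkn1a and for Ccng1, and for no other gene shown.

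Ccng1 encodes cyclin G1, which brings a phosphatase to Mdm2 and is a p53 target. It held 656, 435, 906 and 539.8 normalised counts in SHAM air libraries 1 to 4, and 1582, 1403, 1265 and 1562 in SHAM ozone libraries 17 to 20. Every SHAM ozone library was above every SHAM air library, as in 5.14% of the genes tested. With ozone it rose in SHAM from 634 ± 203 to 1453 ± 149 (SD, n = 4 each), a log2 change of 1.24 ± 0.23 (SE), or 2.37-fold (limma adjusted p = 0.0125; 0.0152 with edgeR and 4.09e-05 with DESeq2). It was the 1 of 8 tested members that each tool called in this comparison. Of all 12771 genes limma called 1.58%, with 0.947% higher, edgeR 1.38% and DESeq2 4.23%. The call was lost without SHAM air 2 (adjusted p = 0.0533, log2 1.08), SHAM ozone 17 (0.0528, log2 1.20) or SHAM ozone 20 (0.0598, log2 1.21). With the neural marker level as a covariate the log2 change was 1.10 (adjusted p = 0.0286). Other cell type markers also stood apart between these groups. The sum over 6 of 6 measured sinusoidal endothelial markers was 387 to 433 RPM in SHAM air and 218 to 383 in SHAM ozone, and over 6 of 6 T and NK cell markers 4.38 to 5.49 and 2.58 to 3.67. The sum over 6 of 6 cholangiocyte markers was 5.14 to 10.6 RPM in SHAM air and 11.6 to 19.6 in SHAM ozone. Limma, edgeR and DESeq2 called 0 genes of these 3 lists there, while 3 of 6, 2 of 2 and 2 of 4 tested genes, in that order of lists, had an unadjusted p under 0.05 with limma, and their part in the Ccng1 change was not tested.

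In adrenalectomized rats Ccng1 held 1022, 1068, 806 and 858 in ADREX air libraries 65 to 68 and 1067, 1213, 968 and 606 in ADREX ozone libraries 81 to 84. The means were 938 ± 126 and 963 ± 259, and the libraries overlapped. The log2 change was 0.00 ± 0.23 with a 95% confidence interval of −0.47 to 0.48, which does not reach the size of the SHAM change. The difference between the ozone effects was −1.24 ± 0.32, but it did not pass with limma (adjusted p = 0.135) or edgeR (0.111), and passed with DESeq2 (0.0138). That Ccng1 responded to ozone more with adrenal glands than without was therefore not established at the threshold used. ADREX air lay above SHAM air (log2 0.61 ± 0.23, adjusted p = 0.15) with overlap, and the call was gained without SHAM air 3 (log2 0.80, adjusted p = 0.038), the SHAM air library with most neural marker RNA (783 RPM). Under ozone all 4 ADREX libraries were below all 4 SHAM libraries, as were 9.94% of the genes tested. The log2 difference was −0.63 ± 0.23 (limma adjusted p = 0.0743), and it passed after TMM rescaling (0.0429), with edgeR (0.0461), with DESeq2 (0.0264) and with the neural covariate (0.0477).

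**Figure D2:**
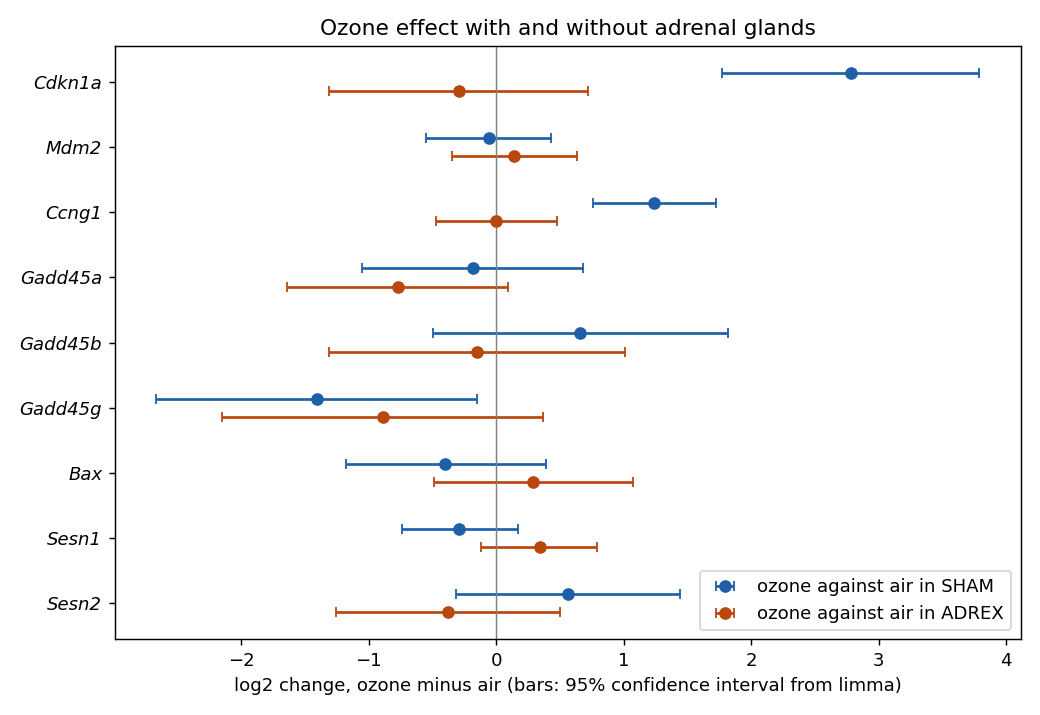
Log2 change with ozone (horizontal axis, ozone minus air) of each gene in SHAM and in ADREX rats, as estimated by limma over 16 libraries, with 95% confidence intervals. Ccng1 was 1.24 in SHAM and 0.00 in ADREX. The Cdkn1a values are the ones that chose it.

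For the other members ozone gave no call. In SHAM 2 of the 8, Ccng1 and Gadd45g, had an unadjusted p under 0.05, beside 18.5% of all genes. In ADREX 0 of the 8 were called by limma, edgeR or DESeq2 and 0 had an unadjusted p under 0.05. Among all genes the 3 tools called 0.125%, 0.384% and 4.46% there, and 17.8% had an unadjusted p under 0.05. For the difference between the ozone effects Ccng1 was the 1 member with an unadjusted p under 0.05, beside 12.9% of genes, and was called by DESeq2 alone. Limma called 0.11% of all genes for that difference, edgeR 0.188% and DESeq2 1.95%. The median log2 change of the 8 was −0.12 in SHAM and −0.07 in ADREX, beside 0.01 and 0.06 over all genes tested. The signs were mixed in SHAM, with 3 members above 0 and 5 below, and in ADREX, with 4 above and 4 below. The ozone comparisons in SHAM and ADREX share no libraries, but each shares its libraries with the surgery comparisons.

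Mdm2 encodes the ubiquitin ligase that degrades p53 and is itself a p53 target, so its level is a common readout of p53 activity. SHAM libraries ranged from 229 to 312 in air and from 234 to 371 with ozone, and ADREX libraries from 277 to 398 and from 315 to 657. The libraries overlapped in each comparison, and 1 library, ADREX ozone 82, stood far above the rest at 657. That library held the most neural marker RNA of all, 4383 RPM, and the part of that RNA in the Mdm2 level was not tested. The log2 change with ozone was −0.06 ± 0.23 in SHAM (95% interval −0.55 to 0.43, limma adjusted p = 0.91), and 0.14 ± 0.23 in ADREX (−0.35 to 0.63, adjusted p = 0.805). Without ADREX ozone 82 the ADREX value was −0.12. Between the surgeries under ozone ADREX was 0.50 ± 0.23 above SHAM (limma unadjusted p = 0.0452, adjusted p = 0.153). That difference was 0.24 to 0.66 when 1 library was left out. The SHAM interval leaves out a change of the size seen for Ccng1.

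Bax encodes a protein that opens the outer mitochondrial membrane in apoptosis. Its counts were low, 14 to 51 recovered reads per library. SHAM libraries held 40.0 to 50.6 normalised counts in air and 19.6 to 60.4 with ozone, ADREX libraries 16.5 to 55.1 and 45 to 52.6, all overlapping. The log2 change with ozone was −0.40 ± 0.37 in SHAM (adjusted p = 0.579) and 0.29 ± 0.37 in ADREX (adjusted p = 0.733). The 95% intervals, −1.18 to 0.39 and −0.49 to 1.07, each still hold a change of 1 log2 unit in 1 direction.

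The Gadd45 genes encode small stress-induced proteins that bind PCNA, cyclin-dependent kinase 1 and an upstream kinase of the p38 and JNK pathways. Gadd45g held 135, 127, 326 and 193 in SHAM air libraries 1 to 4 and 49.8, 88.1, 67.5 and 70.8 in SHAM ozone libraries 17 to 20. All SHAM ozone libraries were below all SHAM air libraries, the opposite of Cdkn1a, as they were for 5.93% of the genes tested. The log2 change was −1.41 ± 0.60, which did not pass (unadjusted p = 0.031, adjusted p = 0.23). In ADREX air it held 67.1, 184, 588 and 55.0, and in ADREX ozone 166, 40.9, 51.6 and 95, with overlap (log2 −0.89 ± 0.60, adjusted p = 0.464).

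Gadd45b was low, at 3 to 54 recovered reads per library. It held 19.3, 16.8, 3.75 and 20.1 normalised counts in SHAM air libraries 1 to 4 and 38.8, 25.4, 77.4 and 66 in ADREX air libraries 65 to 68. Every ADREX air library was above every SHAM air library, as in 4.24% of genes. The log2 difference of 1.81 ± 0.55, or 3.51-fold, missed the threshold with limma (adjusted p = 0.0792) and edgeR (0.0922) and passed with DESeq2 (0.0299). Under ozone SHAM libraries held 28.7, 11.0, 20.7 and 28.0 and ADREX libraries 45.7, 16.8, 57.0 and 74.8, with overlap (log2 1.01 ± 0.55, adjusted p = 0.22). The lowest ADREX ozone value was that of library 82. With the neural marker level as a covariate the surgery differences were 2.48 in air (adjusted p = 0.00841) and 1.67 under ozone (0.0312). Ozone gave log2 0.66 ± 0.55 in SHAM (adjusted p = 0.536) and −0.15 ± 0.55 in ADREX (0.923).

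Gadd45a, the member of the family most tied to p53, ranged from 219 to 601 in SHAM air, from 189.6 to 336 in SHAM ozone, and from 251 to 367 in ADREX ozone. In ADREX air 3 libraries held 319 to 393 and library 67 held 1494. The log2 change with ozone was −0.18 ± 0.41 in SHAM (adjusted p = 0.837) and −0.77 ± 0.41 in ADREX (0.337), which was −0.25 without ADREX air 67. Library 67 was also the highest of its group for Gadd45b (77.4), Gadd45g (588), Sesn1 (527) and Cdkn1a (237), and the lowest for Sesn2 (338), Mdm2 (277) and Ccng1 (806). Its neutrophil marker sum of 26.3 RPM (5 of 5 markers with reads in the group) was the highest of its group, where it ranged from 5.42 to 26.3. In the other groups that sum was between 2.46 and 8.99 RPM. Its part in these values was not tested.

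Sesn1 and Sesn2 encode sestrins, which hold back the growth kinase mTORC1 when nutrients are short or cells are stressed. Sesn1 held 482, 867, 497.5 and 887 in SHAM air libraries 1 to 4 and 365, 342, 527 and 361 in ADREX air libraries 65 to 68, with overlap through ADREX air 67. The log2 difference was −0.74 ± 0.22, or 1.67-fold lower in ADREX, which missed the threshold with limma (adjusted p = 0.0698) and edgeR (0.0616) and passed with DESeq2 (0.0196). It passed with limma without SHAM air 1 (adjusted p = 0.0434), SHAM air 3 (0.0307) or ADREX air 67 (0.0261). With ozone Sesn1 was 438 to 642 in SHAM and 418 to 549 in ADREX, log2 −0.29 ± 0.22 (adjusted p = 0.485) and 0.34 ± 0.22 (0.444) against air.

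Sesn2 held 521, 432, 865 and 646 in SHAM air libraries 1 to 4, and 916, 426, 1577 and 966 in SHAM ozone libraries 17 to 20. ADREX air libraries 65 to 68 held 1018, 729, 338 and 1119, and ADREX ozone libraries 81 to 84 held 707, 887, 469.5 and 332. The groups overlapped, and within SHAM ozone the lowest library was number 18, as for Cdkn1a, but the highest was number 19 and not 20. The log2 change with ozone was 0.56 ± 0.42 in SHAM (adjusted p = 0.485) and −0.38 ± 0.42 in ADREX (0.682), and the difference between them was −0.94 ± 0.59 (0.507). Its spread within groups was wide enough that the 95% interval in SHAM ran from −0.32 to 1.44.

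Between the surgeries 0 of the 8 tested members were called by limma, in air or under ozone. In air Ccng1, Gadd45b and Sesn1, 3 of the 8, had an unadjusted p under 0.05, beside 20.2% of all genes. EdgeR called 0 of them and DESeq2 called Gadd45b and Sesn1. Over all genes limma called 3.54%, edgeR 2.96% and DESeq2 6.53%. Under ozone Mdm2 and Ccng1, 2 of the 8, had an unadjusted p under 0.05, beside 31.1% of genes, and both edgeR and DESeq2 called Ccng1. Over all genes limma called 12.5%, edgeR 12.4% and DESeq2 17.1%. The counts of members are too small to be set apart from these shares. Of the genes called under ozone, 772 were higher and 828 lower in ADREX, a split that TMM rescaling moved to 562 and 1124. TMM also moved the split of higher and lower calls from 5 and 11 to 4 and 15 for ozone in ADREX and from 3 and 11 to 1 and 12 for the difference.

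Of 16 listed genes of the p53 regulatory network, 15 were tested. With ozone limma called 0 of them in SHAM (3 at an unadjusted p under 0.05, 0 with edgeR or DESeq2) and 0 in ADREX (5 unadjusted, 0 with edgeR and 3 with DESeq2). Their median log2 change was −0.14 in SHAM and −0.30 in ADREX, beside 0.01 and 0.06 over all genes. Of all genes 18.5% in SHAM and 17.8% in ADREX had an unadjusted p under 0.05, and DESeq2 called 4.23% and 4.46%. For the difference between the ozone effects the 3 tools called 0, with 2 unadjusted, and in air the 3 tools called 0 for surgery, with 1 unadjusted. For surgery under ozone limma and edgeR called 1 of the 15 and DESeq2 3, beside 12.5%, 12.4% and 17.1% of all genes. There 7 of the 15 had an unadjusted p under 0.05, beside 31.1% of all genes. Under ozone limma called Usp7, a deubiquitinase of p53 and Mdm2, lower in ADREX (2039.7 ± 280.5 in SHAM, 1403 ± 239 in ADREX; log2 −0.54 ± 0.16, adjusted p = 0.0333). That call was lost without SHAM ozone 17 (0.0969), 18 (0.0703) or 20 (0.079) and without ADREX ozone 82 (0.0967) or 83 (0.0749). It was also lost with the neural covariate (0.101), without the 3 libraries richest in neural markers (0.162) and when only the 2 groups were fitted (0.0591).

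Of 33 further p53 target genes, 32 were in the table and 29 were tested. Their median log2 change with ozone was 0.00 in SHAM, with 15 above 0 and 14 below, and 0.06 in ADREX, beside 0.01 and 0.06 over all genes. In SHAM limma called 1 of them, Tp53i13, a p53-inducible gene, beside 1.58% of all genes. Of the 29, 7 had an unadjusted p under 0.05, beside 18.5% of all genes. Tp53i13 rose from 73.7 ± 29.8 in SHAM air to 264 ± 46.3 in SHAM ozone (n = 4 each; log2 1.89 ± 0.24, adjusted p = 0.00156). All its SHAM ozone libraries were above all its SHAM air libraries, as in 5.14% of the genes tested. It stayed called in all 17 alternatives. In ADREX it was 168 ± 37.9 in air and 192 ± 17.9 with ozone (log2 0.21 ± 0.24, adjusted p = 0.701). The difference between the effects did not pass with limma (−1.68 ± 0.35, adjusted p = 0.0869). In ADREX limma and edgeR called 0 targets with ozone. There 3 had an unadjusted p under 0.05, beside 17.8% of all genes, and DESeq2 called 2, beside 4.46%. For the difference limma called 0, with 7 unadjusted, beside 12.9% of all genes. EdgeR and DESeq2 called 1 each, beside 0.188% and 1.95% of all genes. The defining target Zmat3 was low, 17.2 ± 11.9 in SHAM air and 16.6 ± 4.34 in SHAM ozone (log2 0.35 ± 0.64, adjusted p = 0.798).

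In air 3 of the 29 targets were called between the surgeries, beside 3.54% of all genes. Btg2, an antiproliferative immediate early gene, rose from 187 ± 57.8 in SHAM to 750.4 ± 416 in ADREX (n = 4 each; log2 1.89 ± 0.38, adjusted p = 0.0119), with no overlap. In 4.24% of the genes tested all ADREX air libraries were likewise above all SHAM air libraries. Tp53i13 was also higher in ADREX air (log2 1.24 ± 0.24, adjusted p = 0.0106), a call lost when only the 2 groups were fitted (0.0683). Xpc, a DNA damage sensor of nucleotide excision repair, was lower (579.8 ± 34.3 in SHAM, 371 ± 46.3 in ADREX; log2 −0.65 ± 0.14, adjusted p = 0.0137), a call lost with the neural covariate (0.0585) and when only the 2 groups were fitted (0.0659). Under ozone 4 of 29 were called, beside 12.5% of all genes. Tp53inp1, a p53 cofactor in apoptosis and autophagy, was lower in ADREX (315 ± 151 in SHAM, 62.8 ± 15.7 in ADREX; log2 −2.17 ± 0.33, adjusted p = 0.00102), and so was Polh, a translesion polymerase (159.8 ± 15.3 and 98.3 ± 16.2; log2 −0.71 ± 0.17, adjusted p = 0.0137), whose call was lost without the 3 libraries richest in neural markers (0.24). Fas, a death receptor, was higher in ADREX (38.3 ± 8.54 in SHAM, 98.5 ± 35.9 in ADREX; log2 1.29 ± 0.26, adjusted p = 0.00504). Ddb2, another repair factor, was also higher (log2 0.82 ± 0.24, adjusted p = 0.0384), but 11 of 16 alternatives lost the call. These were TMM rescaling and edgeR (0.0568 each), no filter (0.0688), the neural covariate (0.101), the fit without the 3 libraries richest in neural markers (0.071) and that of the 2 groups alone (0.0756). The others left out SHAM ozone 17 (0.0857), 19 (0.0692) or 20 (0.118), or ADREX ozone 82 (0.0641) or 84 (0.0925). The summed markers of T and NK cells moved with surgery too: 6 of 6 had reads in each group, and their sum was 4.38 to 5.49 RPM in SHAM air and 2.58 to 3.67 with ozone, against 6.24 to 9.76 and 5.73 to 9.91 in ADREX. Of their 2 tested genes, 1 lay above 0 and 1 below in air, with 0 called by limma. Under ozone limma called both, Cd8a and Nkg7, higher in ADREX. Cholangiocyte markers, 6 of 6 with reads, summed to 5.14 to 10.6 RPM in SHAM air and 16.2 to 23.9 in ADREX air, where limma called Epcam higher. Kupffer cell and macrophage markers, 8 of 8 with reads, summed to 466 to 682 RPM in SHAM ozone and 566 to 1187 in ADREX ozone. Limma called C1qa and Clec4f of these higher in ADREX ozone. Their part in these calls was not tested.

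**Figure D3:**
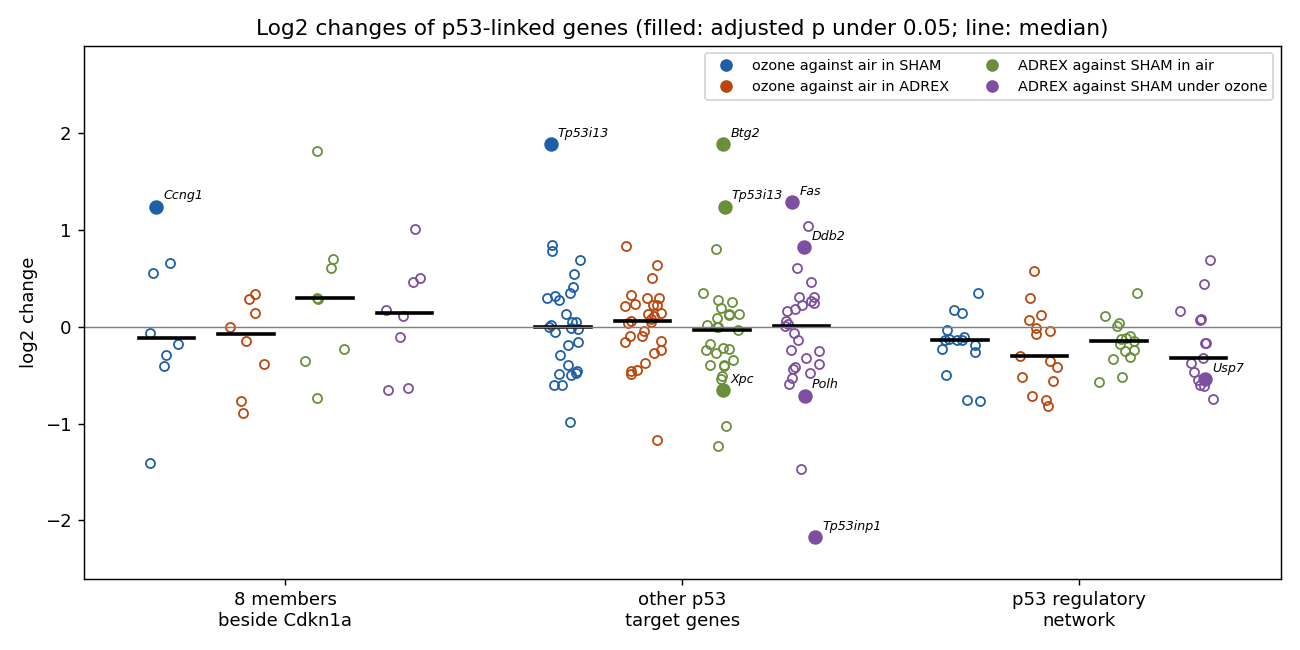
Log2 changes (vertical axis) in 4 comparisons of the 8 members beside Cdkn1a, 29 further p53 target genes and 15 genes of the p53 regulatory network. Each point is a gene, filled and named where limma's adjusted p was under 0.05, and each black line is the median. With ozone in SHAM the filled points are Ccng1 at 1.24 and Tp53i13 at 1.89.

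Cell cycle genes were set beside Cdkn1a because p21 acts on cyclins and their kinases. Of 6 tested inhibitors, among them Cdkn1b (p27), limma and edgeR called 0 in each of the 5 comparisons, with 0 or 1 at an unadjusted p under 0.05. DESeq2 called 1 in air and 0 elsewhere. Cdkn1b was 0.09 ± 0.22 on the log2 scale with ozone in SHAM (adjusted p = 0.847). Of 18 cyclins, kinases and proliferation genes limma called 0 with ozone in SHAM (4 unadjusted, 0 with edgeR, 1 with DESeq2) and 0 in ADREX (2 unadjusted, 1 with edgeR, 2 with DESeq2). Of all genes limma called 1.58% and 0.125%, with 18.5% and 17.8% unadjusted. Between the surgeries under ozone limma called 2 of the 18 higher and 1 lower, beside 12.5% of all genes in either direction. There 5 of the 18 had an unadjusted p under 0.05, beside 31.1% of all genes. Under ozone Ccnd1, which encodes cyclin D1, was higher in ADREX (168 ± 82.8 in SHAM, 618 ± 339 in ADREX; log2 1.83 ± 0.48, adjusted p = 0.0214), a call lost without SHAM ozone 17 (0.0751) or ADREX ozone 83 (0.065). E2f1, a transcription factor of the G1 to S transition, was also higher (log2 1.94 ± 0.34, adjusted p = 0.00228) and stayed called in the 16 alternatives that tested it. Cdk6 was lower (log2 −1.16 ± 0.34, adjusted p = 0.0368), a call lost without SHAM ozone 17 (0.104), 18 (0.0622) or 19 (0.0738) and without ADREX ozone 82 (0.107) or 83 (0.0852). It was also lost with no filter (0.0622), with the neural covariate (0.071), without the 3 libraries richest in neural markers (0.156) and when only the 2 groups were fitted (0.0652).

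Genes of the other stress pathways that reach these members were counted beside them, where limma called 1.58% of all genes with ozone in SHAM and 0.125% in ADREX. Of 16 tested genes of the ATF4 stress response limma and edgeR called 0 with ozone in SHAM, with 2 unadjusted, and Atf4 was −0.15 ± 0.20 (limma adjusted p = 0.706). In ADREX limma and edgeR called 0, with 5 unadjusted, and DESeq2 called 0 in SHAM and 1 in ADREX. Of 13 tested genes of the NRF2 oxidant response 2 lay above 0 and 11 below in SHAM, with a median of −0.28, and limma called Osgin1, an oxidative stress-induced growth inhibitor, which fell from 1787 ± 944 to 445 ± 202 (log2 −1.95 ± 0.42, adjusted p = 0.0296). That call was lost without SHAM air 1 (0.0663) or 2 (0.0737) and without SHAM ozone 17 (0.12), 18 (0.0563) or 20 (0.103), without the 3 libraries richest in neural markers (0.093) and in the fit of the 2 groups alone (0.0577). In ADREX the 3 tools called 0 of the NRF2 genes, with 1 unadjusted. Of 14 tested FOXO-linked genes limma called 1 in SHAM, the autophagy gene Gabarapl1, which was lower (log2 −0.66 ± 0.15, adjusted p = 0.0347). It was not called without SHAM air 1 (0.0581), 2 (0.134) or 4 (0.0641) or without any of SHAM ozone 17 (0.0946), 18 (0.0664), 19 (0.0553) and 20 (0.128), nor with the neural covariate (0.0572) or without the 3 libraries richest in neural markers (0.0881). In ADREX limma and edgeR called 0 of the FOXO-linked genes, with 4 unadjusted, and DESeq2 called 2.

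Between the surgeries under ozone limma called 1 of 14 FOXO-linked genes higher and 2 lower, and 1 of 13 NRF2 genes higher. An unadjusted p under 0.05 was found for 3 of the FOXO-linked and 2 of the NRF2 genes. Of all genes limma called 12.5% there in either direction, and 31.1% had an unadjusted p under 0.05. Foxo1, a transcription factor that can raise Cdkn1a and the sestrins, was 1214 ± 499 normalised counts in SHAM and 303 ± 98.3 in ADREX (n = 4 each; log2 −1.93 ± 0.36, adjusted p = 0.00331). All ADREX libraries were below all SHAM libraries, as in 9.94% of the genes tested, and the call held in all 17 alternatives. Its relative Foxo3 was also lower (log2 −0.88 ± 0.22, adjusted p = 0.0193), a call lost without SHAM ozone 17 (0.0625) or 20 (0.0518) or ADREX ozone 82 (0.0567), and also with the neural covariate (0.0672) and in the fit lacking the 3 neural-rich libraries (0.0676). Gabarapl1 was higher (log2 0.69 ± 0.15, adjusted p = 0.00738), a call lost without those 3 libraries (0.0511). Osgin1 was 2224 ± 907 in ADREX under ozone and 445 ± 202 in SHAM (log2 2.34 ± 0.42, adjusted p = 0.00264). Of the ATF4 genes 0 were called under ozone by limma, with 4 unadjusted, 1 with edgeR and 4 with DESeq2.

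In air limma called Trib1, 1 of 14 FOXO-linked genes, and Atf5, 1 of 16 ATF4 genes, beside 3.54% of all genes. An unadjusted p under 0.05 was found for 6 and 3 genes of these lists, beside 20.2% of all genes. Limma also called Sgk1, given below with the glucocorticoid receptor targets. Trib1, a pseudokinase gene counted among FOXO targets, was higher in ADREX (log2 1.27 ± 0.32, adjusted p = 0.0399), and 11 of 17 alternatives lost the call, among them those without SHAM air 2 (0.106) or 4 (0.128) and without ADREX air 65 (0.104), 66 (0.134) or 68 (0.0523). It was also lost with TMM (0.0519), edgeR (0.0589), no filter (0.0572), the neural covariate (0.071), without the 3 neural-rich libraries (0.0528) and in the fit of the 2 groups alone (0.0908). Atf5, an ATF4-linked transcription factor, was lower (log2 −0.95 ± 0.23, adjusted p = 0.0344), which was lost without SHAM air 1 (0.0864) or 2 (0.0921) or ADREX air 65 (0.109) or 66 (0.0964), with the neural covariate (0.104), without the 3 neural-rich libraries (0.0528) and in the fit of the 2 groups alone (0.0752). Of the 13 NRF2 genes limma called 0 in air, with 2 unadjusted, 0 with edgeR and 1 with DESeq2.

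Glucocorticoid receptor targets served as the check of adrenal removal, and 8 of 8 were tested. With ozone in SHAM limma called 1, Fkbp5 (log2 2.08 ± 0.30, adjusted p = 0.00286), beside 1.58% of all genes. In ADREX it called 0, with 0 unadjusted, beside 0.125% of all genes called. Under ozone 5 of the 8 had an unadjusted p under 0.05, beside 31.1% of all genes. EdgeR called 3 and DESeq2 4 there, beside 12.4% and 17.1% of all genes. Limma called 3, all lower in ADREX, beside 12.5% of all genes called in either direction. They were Fkbp5 (log2 −2.56 ± 0.30, adjusted p = 0.000211), Zbtb16, a zinc finger repressor (−2.79 ± 0.61, 0.00792), and Dusp1, a MAP kinase phosphatase (−1.53 ± 0.44, 0.033). The Dusp1 call was lost without any of SHAM ozone 17 to 20 (0.0505 to 0.0875) and without ADREX ozone 81, 83 or 84 (0.0645 to 0.067), and was 0.133 without the 3 neural-rich libraries. In air limma called 0 of the 8 lower in ADREX and 1 higher, beside 3.54% of all genes called. Of the 8, 6 lay below 0 there and 2 above, and 3 had an unadjusted p under 0.05, beside 20.2% of all genes. EdgeR called 1 and DESeq2 2 of the 8, beside 2.96% and 6.53% of all genes. With limma the check in air gave no call for lost hormone. The 1 limma call, Sgk1, a kinase gene induced by corticosteroids, went the other way. It was higher in ADREX (log2 2.59 ± 0.61, adjusted p = 0.0284), with 1339.7 ± 1595 normalised counts against 164 ± 103. That call was lost without SHAM air 2 (0.0983) or 4 (0.104) or ADREX air 66 (0.0648) or 68 (0.0559), with the neural covariate (0.0735) and in the fit of the 2 groups alone (0.105).

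The genes most like Cdkn1a over the 16 libraries were not among the members. Likeness was Pearson's r of log2(value + 1) over 16 libraries, which share their size factors. The 5 highest among named genes were Rhof (r = 0.936, Spearman's rho = 0.826), Wasl (0.934, 0.838), Dhdds (0.927, 0.915), Paqr3 (0.922, 0.935) and Manea (0.920, 0.888). The SHAM ozone libraries stand apart in these genes, so the values mostly describe that group against the rest. With the group means removed r was 0.740, 0.626, 0.635, 0.532 and 0.485 in the same order. Rhof, a small GTPase, held 72.3 ± 19.9 normalised counts with air and 318 ± 144 with ozone in SHAM, and 32.9 ± 8.88 and 53.4 ± 16.9 in ADREX.

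Among the members Ccng1 came nearest to Cdkn1a, with r = 0.556 and rho = 0.479, the rank 903 of 12770 genes. Sesn2 followed with r = 0.429 (rank 1596) and Sesn1 with 0.232 (rank 3195). Gadd45a (−0.0974), Gadd45g (−0.162), Bax (−0.167), Gadd45b (−0.381) and Mdm2 (−0.444) had negative r. With the group means removed r with Cdkn1a was 0.514 for Gadd45a, 0.462 for Ccng1 and 0.416 for Sesn2, and between −0.0941 and 0.245 for the other members. The Gadd45a value includes ADREX air 67, the highest of its group for both Gadd45a (1494) and Cdkn1a (237). Its r without that library is not given here. These correlations are descriptions over libraries, with no test.

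**Figure D4:**
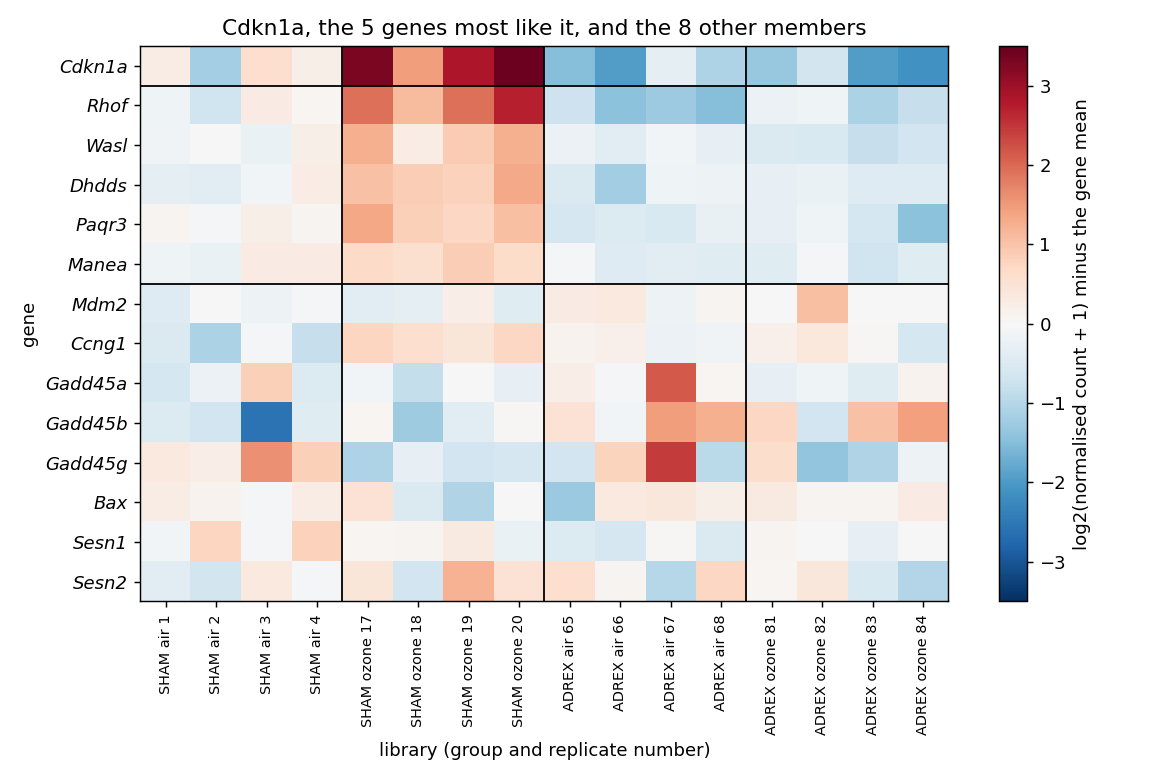
Log2(normalised count + 1) minus the gene's mean over 16 libraries (colour), for Cdkn1a, the 5 genes most like it and the 8 other members (rows) in each library (columns). The block of SHAM ozone libraries is high for Cdkn1a, Rhof, Wasl, Dhdds, Paqr3, Manea and Ccng1, and ADREX air 67 is high for Gadd45a and Gadd45g.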

How the data were processed

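Per the labels' protocols, mRNA was selected from flash-frozen liver, and libraries (Wafergen PrepX kit) were sequenced on a NextSeq 500. Partek, DESeq2 and the rat build rn6 are named, per the submitters' processing notes. Their versions, the aligner, the counting and its strand setting, and the annotation: not given in the sources used here. Overlapping genes may therefore share reads. The deposited values are a signal unit, read counts already scaled by a size factor for each library. Dividing each column by its smallest value above 0 returned whole reads for 100% of values (tolerance 0.01, largest deviation 0.000537).

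The analysis used log2(value + 1), which understates the fold changes of low genes. A gene was tested if its mean reached 14.7, equal to 1 in 1000000 of the median library's summed values. This left 12771 of 22587 symbols after 28 rows with symbols turned into dates were dropped. A two-sided limma-trend fit (limma 3.58.1, R 4.3.3) had 4 group means, 16 libraries and 12 residual degrees of freedom. A gene was called at a Benjamini-Hochberg adjusted p below 0.05, adjusted across the 12771 genes. Adjusted p-values are from limma unless edgeR 4.0.16 or DESeq2 1.42.0, both run on the recovered reads, is named. Precision is limited by 4 libraries per group.

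The members and lists were chosen with earlier results of these data known. The 8 pathway lists held 134 entries. From a list the called genes were named, up to 4 in each direction, or its defining gene where none was called. The values of 1 defining gene are not reported here. The 5 genes most like Cdkn1a were named among those without placeholder symbols. The alternatives were another pseudocount, other filters, TMM rescaling, edgeR, DESeq2, a fit of the compared groups alone, a neural marker covariate, and leaving out libraries.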

Additional observations from a re-analysis of the deposited data

Results flagged for a closer look

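In 5 of the 36 combinations of gene and group, 1 library stood apart from the other 3 by more than the 95% limit for a group of 4. About 5% of independent groups would pass that limit if values were normally distributed. These were unlogged normalised counts, and the 36 combinations share libraries. The share over all genes is not given here, so the count of 5 is a description only. Mdm2 was 371 in SHAM ozone 19, where the next library held 248, and 657 in ADREX ozone 82, where the next held 321. Gadd45a was 1494 in ADREX air 67, where the next held 393, and Sesn1 was 527 in the same library, where the next held 365. Bax was 16.5 in ADREX air 65, where the next held 48.9, on 14 recovered reads. All values are normalised counts.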

How the results depend on the processing

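Ccng1 with ozone in SHAM stayed higher under all 17 alternatives, and the members called numbered 1 except when 1 library was left out, where the range was 0 to 1. For the difference between the ozone effects DESeq2 called 1 member. For surgery in air the neural covariate called 1, DESeq2 called 2, and leaving out 1 library gave 0 to 2, with 2 without SHAM air 3. Under ozone TMM rescaling called 1, the neural covariate 2, edgeR 1 and DESeq2 1. Some values near 0 changed sign, none of them called. With ozone in ADREX, Ccng1 was −0.05 with TMM, −0.14 with the neural covariate, −0.28 without the 3 libraries richest in neural RNA, −0.06 with edgeR and −0.02 with DESeq2. There Gadd45b was 0.47 with that covariate and 0.45 without those libraries, and Mdm2 was −0.12 without them, and −0.09 for the difference. Gadd45g in air was 0.21 with edgeR and 0.22 with DESeq2, and Gadd45a under ozone −0.03 without those 3 libraries and −0.02 with edgeR. Leaving out 1 library gave, with ozone in SHAM, −0.22 to 0.00 for Mdm2 and −0.35 to 0.13 for Gadd45a. In ADREX it gave −0.12 to 0.23 for Mdm2, −0.12 to 0.21 for Ccng1, −0.44 to 0.28 for Gadd45b and −0.12 to 0.45 for Bax, and for the difference −0.06 to 0.36 for Mdm2. Between surgeries it gave −1.03 to 0.10 for Gadd45g and −0.38 to 0.18 for Bax in air, and −0.06 to 0.21 for Gadd45a and −0.21 to 0.46 for Gadd45g under ozone. The cause of these changes was not tested.

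The count of all genes called moved by more than 1.5 times as follows. With ozone in SHAM it was 202, 540 with DESeq2, 107 without the 3 libraries richest in neural RNA, and 38 (without SHAM ozone 20) to 657 (without SHAM air 3) without 1 library. In ADREX it was 16, with 26 at a pseudocount of 10, 36 with no filter, 27 with the covariate, 1 without the 3 libraries, 49 with edgeR, 569 with DESeq2, 3 in the fit of 2 groups, and 0 to 50 without 1 library. For the difference it was 14, with 24 by edgeR, 249 by DESeq2, 22 with the covariate and 3 to 33 without 1 library. In air it was 452, with 195 under the covariate, 834 by DESeq2, 213 in the fit of 2 groups and 196 to 1004 without 1 library. Under ozone it was 1600, with 475 without the 3 libraries, where ADREX ozone kept only 83 and 84, and 786 to 1685 without 1 library. The stricter filter removed Gadd45b and Bax, whose low reads limit what could be detected. No paired analysis was possible because the groups share no replicate numbers.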
